A study of Mus musculus with 6 samples.

Results

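Epithelial-mesenchymal transition (EMT) is the programme in which epithelial cells give up E-cadherin junctions and take on the filaments, matrix and motility of mesenchymal cells. Transcription factors of the SNAI, ZEB and TWIST families repress epithelial genes through E-box sequences, and GRHL2 acts against them by keeping epithelial genes on. Melanocytes come from the neural crest and are not epithelial, and in human melanoma a ZEB2 and SNAI2 state is described for differentiated cells and a ZEB1 and TWIST1 state for dedifferentiated, invasive cells. The genes described here are 10, chosen by name from the 51912 genes of the expression table: Vim, Fn1, Cdh1, Cdh2, Snai1, Snai2, Zeb1, Zeb2, Twist1 and Grhl2.

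They were measured in B16F10, a pigmented mouse melanoma cell line that forms lung metastases in mice. Of the 6 libraries, 3 were of annexin A10 knockout cells (genotype ANXA10-/-, called A10KO, replicates 1, 13 and 14 as numbered in the labels), and 3 were wild type (WT, replicates 1, 2 and 3). The labels name no treatment and no time, and how the knockout was made is not given in the sources used here. Whether the replicate numbers are clones, cultures or repeat preparations is not given either, and the design speaks of a WT line and an A10KO line. The p-values below therefore reflect differences among the 6 libraries alone, and that scatter may be technical. By its title, the study is about annexin A10 in the spread of melanoma.

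Values are in TPM, a measure of transcript share that is scaled for transcript length and so can be compared between genes. The columns sum to 969834 to 985045 TPM, 11889 to 12236 genes per library reached 1 TPM, and the depth of the libraries is unknown. Anxa10 was listed at 0 TPM in all 6 libraries, so it gave no check of the labels. The mitochondrially encoded share was 7.93% in A10KO replicate 1, 14.7% in replicate 13 and 7.37% in replicate 14, and 6.32% to 6.56% in WT, so A10KO replicate 13 stood apart. Among markers of melanocytes, the lineage named in the labels, 12 of 14 were tested, and their summed level was 12422 to 13363 TPM in A10KO and 11786 to 12752 TPM in WT. Kit and Ednrb, both melanocyte receptor genes, were at 0.02 TPM or less in every library. In bulk RNA, fewer cells of a type and less RNA per cell cannot be told apart.

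The 10 genes formed a mixed pattern in both genotypes: the mesenchymal genes Vim, Cdh2 and Fn1 and the repressor Zeb2 were present, Cdh1, Zeb1, Snai1 and Twist1 were near 0, and the epithelial-state factor Grhl2 was present as well. In A10KO the order by mean TPM was Vim, Grhl2, Fn1, Cdh2, Zeb2, Snai2, Snai1, then Cdh1 and Zeb1 at equal means, and Twist1. In WT it was Vim, Fn1, Cdh2, Grhl2, Zeb2, Snai2, Snai1, Cdh1, Zeb1 and Twist1. Neighbours whose ranges over 3 libraries overlapped in A10KO were Grhl2 and Fn1, Fn1 and Cdh2, Cdh2 and Zeb2, Snai1 and Cdh1, and Cdh1 and Zeb1. In WT they were Cdh2 and Grhl2, Snai1 and Cdh1, Cdh1 and Zeb1, and Zeb1 and Twist1.

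**Figure D1:**
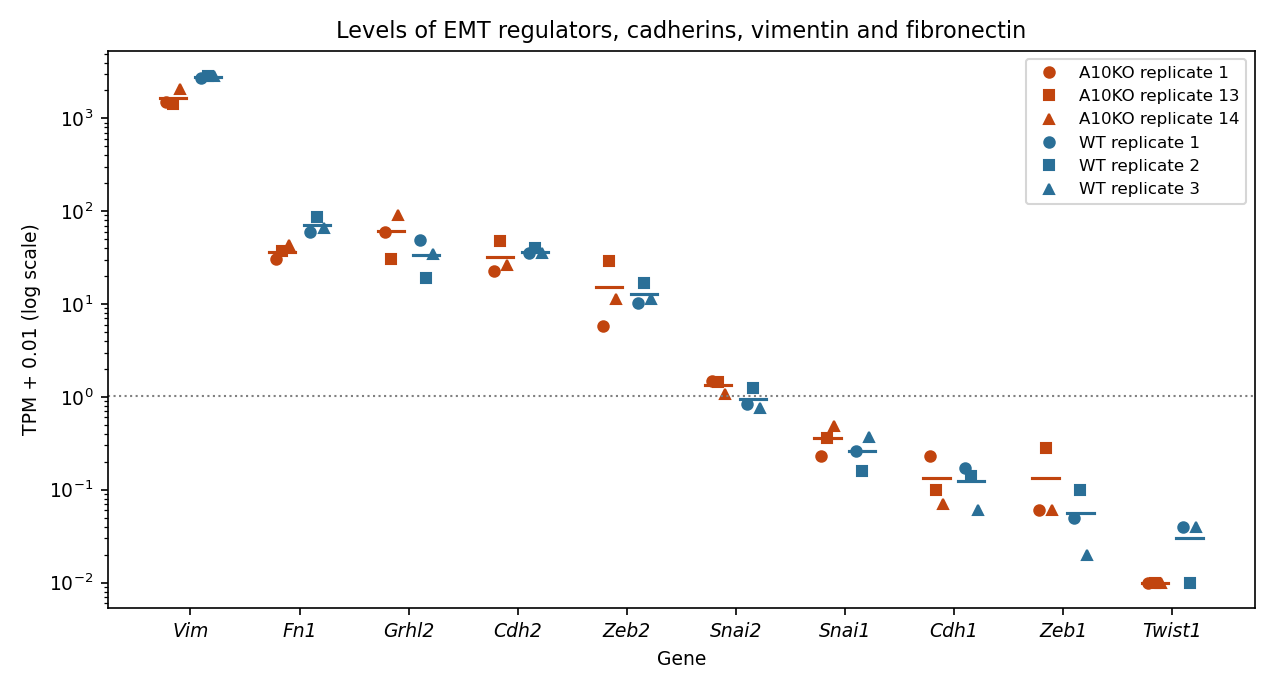
TPM of the 10 genes in each library, on a log axis after adding 0.01 so that zeros can be drawn; red symbols are A10KO and blue symbols WT libraries, short lines are group means, and the dotted line marks 1 TPM. Vim stands above all others in both groups, and Snai1, Cdh1, Zeb1 and Twist1 lie under 1 TPM in every library.

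For the comparison of A10KO with WT, genes reaching 1 TPM in 3 or more libraries were tested with limma on log2(TPM + 1), with p-values adjusted over all 12068 genes tested by the Benjamini-Hochberg method. Log2 changes are A10KO minus WT on that scale, and for low genes they come out too small. Of the 10 genes, 6 passed the filter and 0 of those 6 had an adjusted p under 0.05 by limma, against 0.0414% of all genes tested (0.0249% lower and 0.0166% higher in A10KO). At an unadjusted p under 0.05 there were 2 of 6, Vim and Fn1, both lower in A10KO. The share of all tested genes past that level was 8.83% in either direction and 6.27% lower in A10KO. Log2 changes were below 0 for 4 of the 6 and for 56.5% of all genes tested. Vim and Fn1 were also the 2 genes whose groups did not overlap, and the background of non-overlapping groups was 11.5% for genes lower in A10KO and 5.61% for genes higher.

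Vim encodes vimentin, the type III intermediate filament of mesenchymal cells (ENSMUSG00000026728, GRCm38 chr2:13573927-13582826, plus strand). It stood at 1499, 1426 and 2098 TPM in A10KO replicates 1, 13 and 14, against 2704, 2854 and 2859 TPM in WT replicates 1, 2 and 3. Every A10KO library was below every WT library, and the gap between the nearest libraries was 606 TPM. The WT libraries were within 1.06-fold of each other and the A10KO libraries within 1.47-fold. The means were 1675 ± 369 TPM in A10KO and 2806 ± 87.9 TPM in WT (SD, n = 3 each), so the mean was 40.3% lower in A10KO. Its log2 change was -0.77 (SE 0.18, 95% interval -1.18 to -0.35), with a limma unadjusted p = 0.00318 and an adjusted p = 0.297, so it did not pass the threshold. Over all 23617 genes with a value above 0 in any library, Vim ranked 63 by mean TPM.

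Fn1 encodes fibronectin, a secreted glycoprotein that cells assemble into matrix fibrils through integrins (ENSMUSG00000026193, chr1:71585520-71653200, minus strand). It stood at 30.4, 37.3 and 42.7 TPM in A10KO replicates 1, 13 and 14, against 60.3, 87.0 and 65.3 TPM in WT replicates 1, 2 and 3. The groups did not overlap, with A10KO replicate 1 the lowest and WT replicate 2 the highest. The means were 36.8 ± 6.20 TPM in A10KO and 70.8 ± 14.2 TPM in WT (SD, n = 3 each), 48.0% lower in A10KO. The log2 change was -0.92 (SE 0.19, 95% interval -1.36 to -0.48), with a limma unadjusted p = 0.00142 and an adjusted p = 0.226. An antisense gene, Apol7d, overlaps the locus and stood at 0.18 to 0.89 TPM.

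Vim and Fn1 kept their direction in each of the 13 alternative fits, with log2 changes of -0.94 to -0.62 for Vim and -1.03 to -0.74 for Fn1. In all 13 both had an unadjusted p under 0.05 and neither had an adjusted p under 0.05. Adjusted p-values ran from 0.114 to 0.938 for Vim and from 0.149 to 0.800 for Fn1. With mitochondrial transcripts removed and the rest rescaled, the log2 changes were -0.70 for Vim and -0.86 for Fn1. Vim was lowest in A10KO replicate 13, the library with the highest mitochondrial share, whereas Fn1 was lowest in A10KO replicate 1. Vim and Fn1 are also strongly expressed by fibroblasts, and 10 of 12 fibroblast markers were under 1 TPM in every library, with Dcn at most 0.16 TPM and Pdgfra at most 0.41 TPM. The summed fibroblast markers reached 0.90 to 11.1 TPM in A10KO and 2.48 to 3.17 TPM in WT, with the highest sum in A10KO replicate 14, where Col14a1, a fibril-associated collagen gene, was at 9.81 TPM. Whether fibroblast RNA had a part in the values of Vim and Fn1 was not tested.

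**Figure D2:**
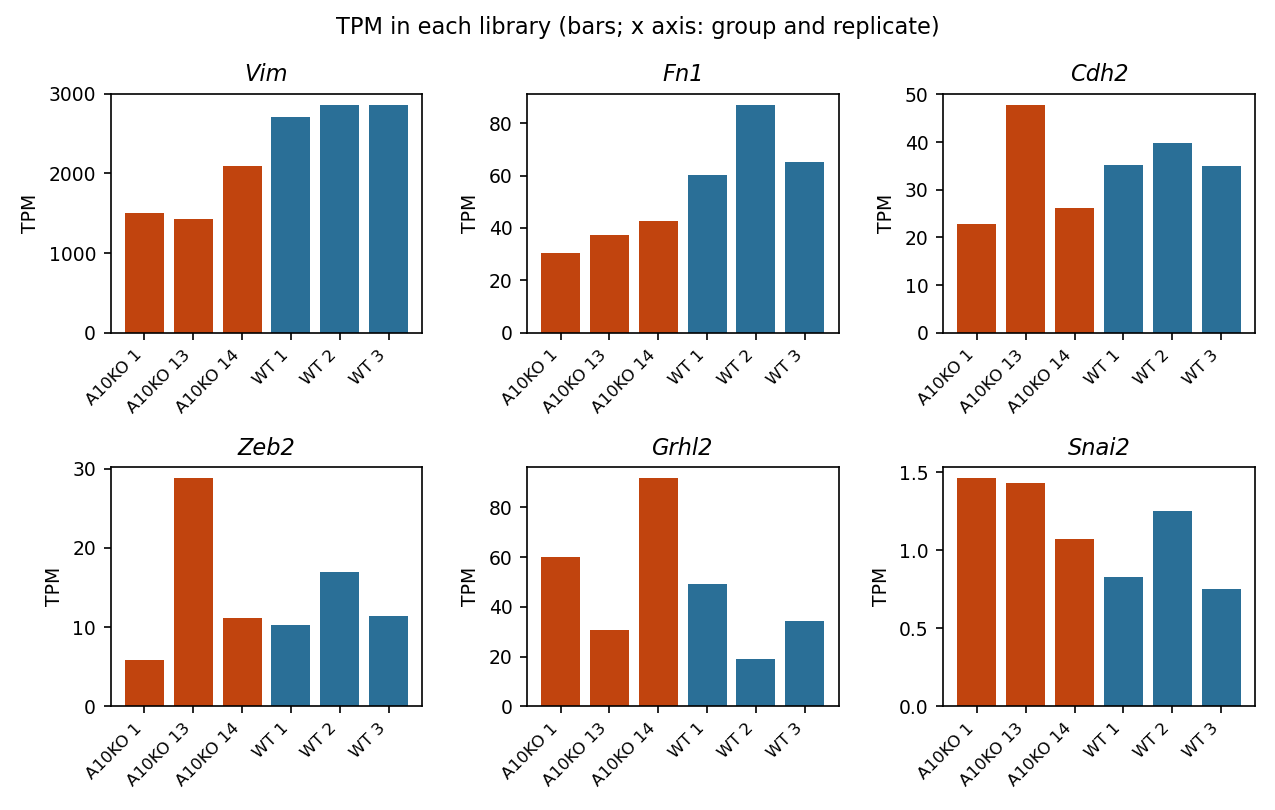
TPM of the 6 genes above the filter in each library, on linear axes that start at 0; red bars are A10KO replicates 1, 13 and 14 and blue bars WT replicates 1, 2 and 3. Vim and Fn1 are lower in all 3 A10KO libraries, and A10KO replicate 13 is highest for Cdh2 (47.8 TPM) and Zeb2 (28.8 TPM).

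The genes with the profiles most like those of Vim and Fn1 across the 6 libraries were taken by the smallest root mean square difference between centred log2(TPM + 1) values. For Vim these were Hpcal1 (0.054), which encodes a neuronal-type calcium sensor, Mov10 (0.069), an RNA helicase gene, and Pigv (0.072), a gene of glycolipid anchor synthesis. Hpcal1 stood at 10.3 ± 2.17 TPM in A10KO and 17.2 ± 0.725 TPM in WT (SD, n = 3 each). For Fn1 they were Adssl1 (0.064), an adenylosuccinate synthase gene, Zc2hc1a (0.077), a zinc finger gene, and Tead3 (0.095), a transcription factor partner of YAP. Tead3 stood at 6.41 ± 0.959 TPM in A10KO and 13.8 ± 2.26 TPM in WT (SD, n = 3 each). By the same measure Vim and Fn1 were 0.20 apart. Within each library, the log2 ratio of Vim to Fn1 was 5.62, 5.25 and 5.61 in A10KO and 5.49, 5.03 and 5.45 in WT, a difference of the means of 0.17 (exact two-sided permutation p = 0.5, and 0.8 adjusted over 4 ratios). That difference was 0.03 without WT replicate 2 and 0.29 without A10KO replicate 13, and it was also moved by over 1.5 times without A10KO replicate 1 (0.11) or 14 (0.11).

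Of the cadherins, Cdh2, which encodes the N-cadherin of neural and mesenchymal cells, was present and Cdh1, which encodes the E-cadherin of epithelia and of normal epidermal melanocytes, was near 0. Cdh2 (ENSMUSG00000024304, chr18:16588877-16809246, minus strand) stood at 22.9, 47.8 and 26.1 TPM in A10KO replicates 1, 13 and 14, against 35.2, 39.9 and 35.04 TPM in WT. A10KO replicates 1 and 14 were below every WT library and replicate 13 was above every one. The log2 change was -0.25 (SE 0.26, 95% interval -0.86 to 0.36, limma adjusted p = 0.801). Without A10KO replicate 13 it was -0.56 (limma unadjusted p = 0.00414, adjusted p = 0.254), without A10KO replicate 1 it was -0.05, and over the 13 alternatives the adjusted p ran from 0.254 to 0.987.

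Cdh1 (ENSMUSG00000000303, chr8:106603351-106670246, plus strand) stood at 0.22, 0.09 and 0.06 TPM in A10KO replicates 1, 13 and 14, against 0.16, 0.13 and 0.05 TPM in WT. The groups overlapped and Cdh1 was under the filter. Within each library, the log2 ratio of Cdh2 to Cdh1, with 0.1 TPM added to each, was 6.17, 7.98 and 7.36 in A10KO and 7.09, 7.44 and 7.87 in WT. The difference of the means was -0.30 (exact two-sided permutation p = 0.8, and 0.8 adjusted over the 4 ratios tested). With 3 libraries per group the smallest p this test can give is 0.1. The sign turned to 0.20 without A10KO replicate 1.

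Among 19 other cadherin genes, 4 were tested and 15 were under 1 TPM in every library, including Cdh3, the P-cadherin of epithelia, at 0.06 TPM or less. None of the 4 had an unadjusted p under 0.05 by limma, against 8.83% of all genes tested, so the count does not show that they were unchanged. Cdh18, a type II cadherin known from brain, stood at 121, 32.7 and 60.5 TPM in A10KO replicates 1, 13 and 14, against 28.3, 41.1 and 36.8 TPM in WT. It was the cadherin with the highest mean in A10KO, above Cdh2, and A10KO replicate 13 lay within the WT range (log2 change 0.81, limma adjusted p = 0.634). Cdh19, a cadherin of neural crest derivatives, stood at 10.3 ± 3.98 TPM in A10KO and 11.9 ± 2.52 TPM in WT (SD, n = 3 each). Cdh13, which encodes the membrane-anchored T-cadherin and was chosen here after its values were seen, stood at 8.07, 0.18 and 11.3 TPM in A10KO replicates 1, 13 and 14, against 8.30, 11.5 and 8.57 TPM in WT, so that 1 A10KO library was far below the other 5.

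Of 12 genes of the cadherin-catenin and nectin complex, 10 were tested and 0 had an adjusted p under 0.05 by limma. At an unadjusted p under 0.05 there was 1 gene, lower in A10KO, beside 6.27% lower among all genes tested. It was Nectin2, a junctional immunoglobulin-type adhesion gene, at 26.1 ± 3.30 TPM in A10KO and 35.2 ± 2.44 TPM in WT (SD, n = 3 each; limma adjusted p = 0.480). Ctnnb1, which encodes beta-catenin, had the highest mean, at 624 ± 57.8 TPM in A10KO and 572 ± 22.7 TPM in WT. Ctnna1, alpha-catenin, stood at 87.6 ± 8.42 TPM in A10KO and 85.6 ± 3.84 TPM in WT. The median log2 change of the 10 was -0.03, beside -0.04 over all genes tested, and its sign turned under median-of-ratios scaling (0.02), under quantile normalization (0.02) and with mitochondrial transcripts removed (0.04). The sign also turned with no filter (0.01), without WT replicate 2 (0.02) and without A10KO replicate 14 (0.03). Without WT replicate 2 or 3, 0 of the 10 had an unadjusted p under 0.05.

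Of the ZEB pair, both zinc finger and homeodomain repressors, Zeb2 was expressed and Zeb1 was near 0. Zeb2 (ENSMUSG00000026872, chr2:44983632-45117395, minus strand) stood at 5.85, 28.8 and 11.2 TPM in A10KO replicates 1, 13 and 14, against 10.2, 17.0 and 11.4 TPM in WT. The A10KO libraries were within 4.92-fold of each other, with replicate 13 above and replicate 1 below every WT library, and the WT libraries within 1.66-fold. The log2 change was -0.01 (SE 0.50, 95% interval -1.16 to 1.15, limma adjusted p = 0.998). Its sign depended on single libraries: it was 0.49 without A10KO replicate 1, 0.20 without WT replicate 2 and 0.07 without A10KO replicate 14, but -0.57 without A10KO replicate 13.

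Zeb2os, an antisense gene within the locus, stood at 2.34, 1.34 and 5.47 TPM in A10KO replicates 1, 13 and 14, against 2.94, 3.47 and 2.17 TPM in WT. It was lowest in A10KO replicate 13, where Zeb2 was highest, but among the WT libraries both were highest in replicate 2. The strand setting of the counting is not given in the sources used here, so reads of the pair cannot be told apart with certainty.

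Zeb1 (ENSMUSG00000024238, chr18:5591860-5775467, plus strand) stood at 0.05, 0.27 and 0.05 TPM in A10KO replicates 1, 13 and 14, against 0.04, 0.09 and 0.01 TPM in WT. The groups overlapped, and in each group the library with the highest Zeb2 also had the highest Zeb1. The log2 ratio of Zeb1 to Zeb2 was -5.31, -6.29 and -6.23 in A10KO and -6.21, -6.49 and -6.71 in WT, so Zeb2 was the higher of the pair in all 6 libraries. The difference of the means was 0.53 (exact two-sided permutation p = 0.3, and 0.8 adjusted over the 4 ratios). It was 0.10 with 1 TPM added in place of 0.1 TPM and 0.21 without A10KO replicate 1.

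Of the SNAI pair, both zinc finger repressors, Snai2 had the higher level in every library. Snai2 (ENSMUSG00000022676, chr16:14705852-14709385, plus strand), a factor needed for melanocyte development in mouse, stood at 1.46, 1.43 and 1.07 TPM in A10KO replicates 1, 13 and 14, against 0.83, 1.25 and 0.75 TPM in WT. WT replicate 2 lay within the A10KO range, so the groups overlapped. The log2 change was 0.26 (SE 0.23, 95% interval -0.27 to 0.79, limma adjusted p = 0.772).

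Snai1 (ENSMUSG00000042821, chr2:167538195-167542814, plus strand), the founding EMT repressor, stood at 0.22, 0.35 and 0.47 TPM in A10KO replicates 1, 13 and 14, against 0.25, 0.15 and 0.36 TPM in WT. The groups overlapped and all 6 values were under the filter. The log2 ratio of Snai1 to Snai2 was -2.29, -1.77 and -1.04 in A10KO and -1.41, -2.43 and -0.89 in WT. The difference of the means was -0.12 (exact two-sided permutation p = 0.8, and 0.8 adjusted over the 4 ratios), and its sign turned to 0.23 without WT replicate 3 and to 0.17 without A10KO replicate 1.

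SNAI and ZEB proteins bind the E-box CACCTG, read as CAGGTG on the other strand. RefSeq promoter sequences (build GRCm38.p6) were matched for 4 of the 10 genes, Vim, Snai1, Zeb2 and Twist1, and the 250 bases before each annotated start were searched. The Snai1 window held 1 match, at -126 from the start, and the Vim window, the 4 Zeb2 windows and the Twist1 window held 0. The RefSeq starts were not always those of the gene coordinates given above. The Vim window (chr2:13574061-13574310) lies inside the gene as placed there, so the bases before that gene start were not searched. The Zeb2 windows other than chr2:45117443-45117692 also lie inside their gene. Of all 32851 windows of that length, 17.2% held the motif. The Snai1 window (chr2:167537945-167538194, plus strand, 70% G and C) is shown because it alone carries the motif, which is in capitals.
Snai1: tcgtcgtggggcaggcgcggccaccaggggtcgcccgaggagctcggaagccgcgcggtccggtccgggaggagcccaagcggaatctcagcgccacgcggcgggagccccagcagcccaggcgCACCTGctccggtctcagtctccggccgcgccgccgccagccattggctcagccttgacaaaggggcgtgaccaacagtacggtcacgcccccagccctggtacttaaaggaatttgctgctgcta
A match is a description of the letters and not a site of binding.

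Twist1 (ENSMUSG00000035799, chr12:33957671-33959829, plus strand), a basic helix-loop-helix factor of mesoderm and neural crest, was listed at 0 TPM in all 3 A10KO libraries, against 0.03, 0 and 0.03 TPM in WT. No fold is given for it. Among 21 subunit genes of RNA polymerase II and of splicing factor 3, which every cell needs, 0 were listed at 0 throughout. With the depth unknown, that count does not show whether a gene as low as Twist1 would be detected.

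Grhl2 encodes grainyhead-like 2, a factor that keeps epithelial genes such as Cdh1 open and active in epithelia (ENSMUSG00000022286, chr15:37233036-37363569, plus strand). It stood at 60.0, 30.6 and 91.7 TPM in A10KO replicates 1, 13 and 14, against 49.0, 19.0 and 34.5 TPM in WT replicates 1, 2 and 3. Its level was therefore near that of Cdh2 and Fn1, and it ranked 2767 of 23617 by mean TPM. A10KO replicates 1 and 14 were above every WT library and replicate 13 lay within the WT range. The means were 60.7 ± 30.5 TPM in A10KO and 34.2 ± 15.0 TPM in WT (SD, n = 3 each), and the log2 change was 0.78 (SE 0.45, 95% interval -0.27 to 1.82, limma adjusted p = 0.665). Single libraries moved it to 1.19 without A10KO replicate 13, and to 0.42 without A10KO replicate 14 or without WT replicate 2, with adjusted p-values from 0.376 to 0.987 over the 13 alternatives. In 2 of the 13 the limma unadjusted p was under 0.05, at 0.0214 without A10KO replicate 13 and 0.0388 with array quality weights. The antisense and pseudogene annotations that overlap Grhl2 were listed at 0 in every library.

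The epithelial genes that surround Grhl2 in epithelia were mostly near 0. Of 28 genes for tight junctions, desmosomes, polarity and keratins, 21 were under 1 TPM in every library, with Epcam and Ocln listed at 0 in all 6 and Cldn4, a known target of GRHL2, at 0.07 TPM or less. The 6 tested members had a median log2 change of -0.16, and 0 had an adjusted p under 0.05 by limma. At an unadjusted limma p under 0.05, 1 of the 6 was lower in A10KO, beside 6.27% of all genes tested. It was Pkp2, a desmosomal plaque gene (unadjusted p = 0.0435), at 5.74 ± 1.88 TPM in A10KO and 9.67 ± 2.51 TPM in WT (SD, n = 3 each; adjusted p = 0.556). Without any 1 WT library or A10KO replicate 14, and with mitochondrial transcripts removed, 0 genes of the list were under that level. Llgl2, a polarity gene, stood at 18.1 ± 3.33 TPM in A10KO and 19.6 ± 6.23 TPM in WT.

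Of 13 other factors of the epithelial state, 11 were under 1 TPM in every library, among them Grhl1, Grhl3, Ovol1, Ovol2, Esrp1 and Esrp2. Foxa1, a pioneer factor, and Klf4, a zinc finger factor of epidermis, were tested. Foxa1 stood at 1.82 ± 1.15 TPM in A10KO and 1.42 ± 0.283 TPM in WT (SD, n = 3 each). Klf4 stood at 1.18 ± 0.389 TPM in A10KO and 1.17 ± 0.425 TPM in WT.

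Across libraries, the library with the highest Zeb2 was in each genotype also the one with the highest Cdh2 and the lowest Grhl2, a description of 3 libraries per group. The other libraries did not keep a common order. In A10KO, replicate 13 had the highest Zeb2 and Cdh2 and the lowest Grhl2. In WT, replicate 2 had the highest Zeb2 and Cdh2 and the lowest Grhl2. The peak in these libraries was not particular to Zeb2 and Cdh2. Afdn and Vcl of the cadherin-catenin list and Suz12 of the corepressor list shared it, whereas Ctnnb1 and Sparc did not. The share of all genes with that peak was not counted. A10KO replicate 13 also had the highest mitochondrial share, at 14.7%, and its part in that order was not tested. WT replicate 2, at 6.48%, lay between the other WT libraries.

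**Figure D3:**
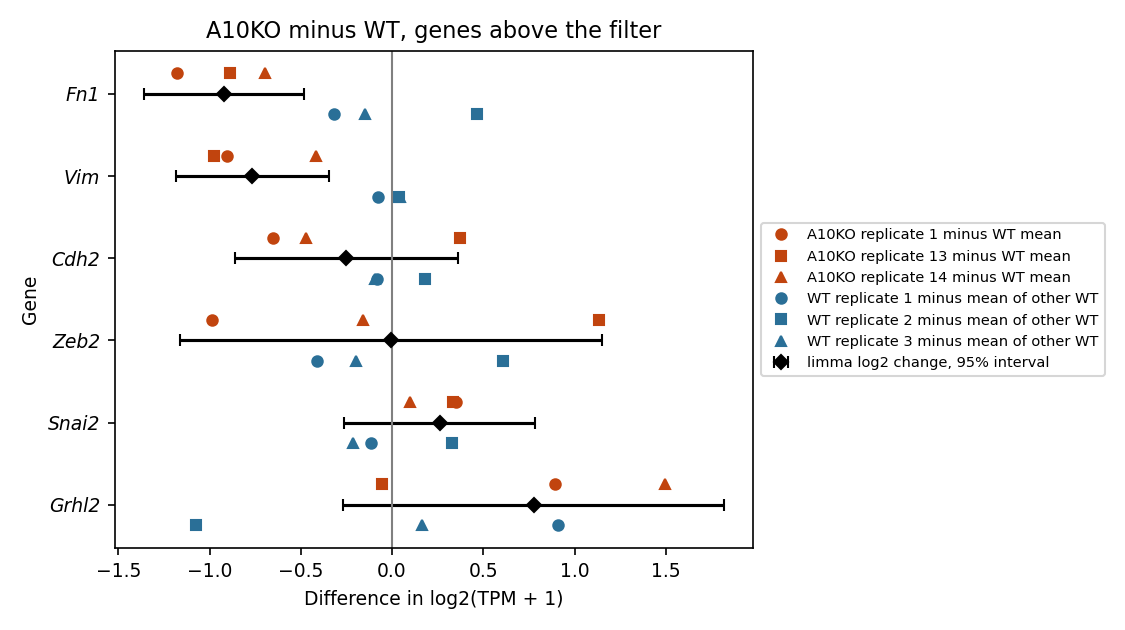
Difference in log2(TPM + 1) for the 6 genes above the filter; black diamonds are limma log2 changes of A10KO minus WT with 95% intervals, red symbols each A10KO library minus the WT mean and blue symbols each WT library minus the mean of the other WT libraries. All 3 red symbols lie below 0 for Fn1 and Vim, while those of Zeb2 run from -0.99 to 1.13.

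Of 16 further transcription factors linked to EMT, 9 were tested. By limma, 0 had an adjusted p under 0.05, against 0.0414% of all genes tested, and 0 an unadjusted p under 0.05, against 8.83%. At those shares, 0 of 9 does not show that the factors were unchanged. Twist2, Prrx1 and Gsc were listed at 0 TPM in every library. Tcf3, which encodes the E-box factor E2A, stood at 53.0 ± 5.56 TPM in A10KO and 57.5 ± 2.54 TPM in WT (SD, n = 3 each). Tcf12, a related E protein gene, stood at 43.0 ± 11.5 TPM in A10KO and 38.4 ± 9.23 TPM in WT. Tcf4, also an E protein gene, and Sox9, a neural crest factor, were chosen after their values were seen. Tcf4 stood at 3.64, 12.6 and 5.08 TPM in A10KO and 3.94, 7.60 and 4.36 TPM in WT, and Sox9 at 1.38, 7.14 and 2.51 TPM in A10KO and 2.95, 4.52 and 3.65 TPM in WT. Like Zeb2, both were highest in A10KO replicate 13 and WT replicate 2.

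In a list of genes that EMT raises in other cells, the median log2 change was below that of all genes. The list was chosen with earlier results of these data known, so its counts are a description and not a test. Of 32 genes for matrix and the contractile cytoskeleton, 19 were tested, 9 were under 1 TPM in every library, and 0 had an adjusted p under 0.05 by limma. At an unadjusted p under 0.05, 6 were lower and 0 higher in A10KO, against 6.27% and 2.56% of all genes tested. Log2 changes were below 0 for 15 of the 19, against 56.5% of all genes, and 7 had groups that did not overlap, all lower in A10KO, against 11.5% of all genes. The 6 were Cnn2, Cald1, Col5a1, Cyr61, Col1a1 and Spp1. Among A10KO libraries Col1a1 reached 1 TPM only in replicate 13 (1.6 TPM, against 1.93 to 2.46 TPM in WT). Tpm2, among the 7 without overlap, reached it only in A10KO replicate 14 (1.08 TPM, against 1.48 to 1.71 TPM in WT). The filter thus admitted both mainly through the group where they were higher. Cyr61 was without overlap only narrowly, at 17.82 TPM in A10KO replicate 14 against 17.84 TPM in WT replicate 1. Cnn2, an actin-binding calponin gene, stood at 42.7, 30.5 and 24.6 TPM in A10KO replicates 1, 13 and 14, against 55.7, 62.7 and 55.9 TPM in WT. Its groups did not overlap (log2 change -0.85, SE 0.20, limma adjusted p = 0.297). Cald1, the caldesmon gene, stood at 49.4 ± 8.54 TPM in A10KO and 77.2 ± 16 TPM in WT (SD, n = 3 each; limma adjusted p = 0.426), and Col5a1, a fibrillar collagen gene, at 12.3 ± 1.78 TPM in A10KO and 19.6 ± 4.04 TPM in WT (limma adjusted p = 0.433).

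The 2 genes of highest mean in that list did not pass either level. Sparc, a matricellular protein gene, stood at 393 ± 38.4 TPM in A10KO and 440 ± 20.9 TPM in WT (SD, n = 3 each; limma adjusted p = 0.744). Tpm1, the tropomyosin gene, stood at 369 ± 48.8 TPM in A10KO and 403 ± 19.1 TPM in WT (limma adjusted p = 0.792). The median log2 change of the 19 was -0.39, beside -0.04 over all genes. It was -0.64 with a pseudocount of 0.1 TPM, -0.61 with a filter of 5 TPM and -0.08 with no filter. The count lower at an unadjusted p under 0.05 was 2 without WT replicate 2 and 4 without WT replicate 3.

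**Figure D4:**
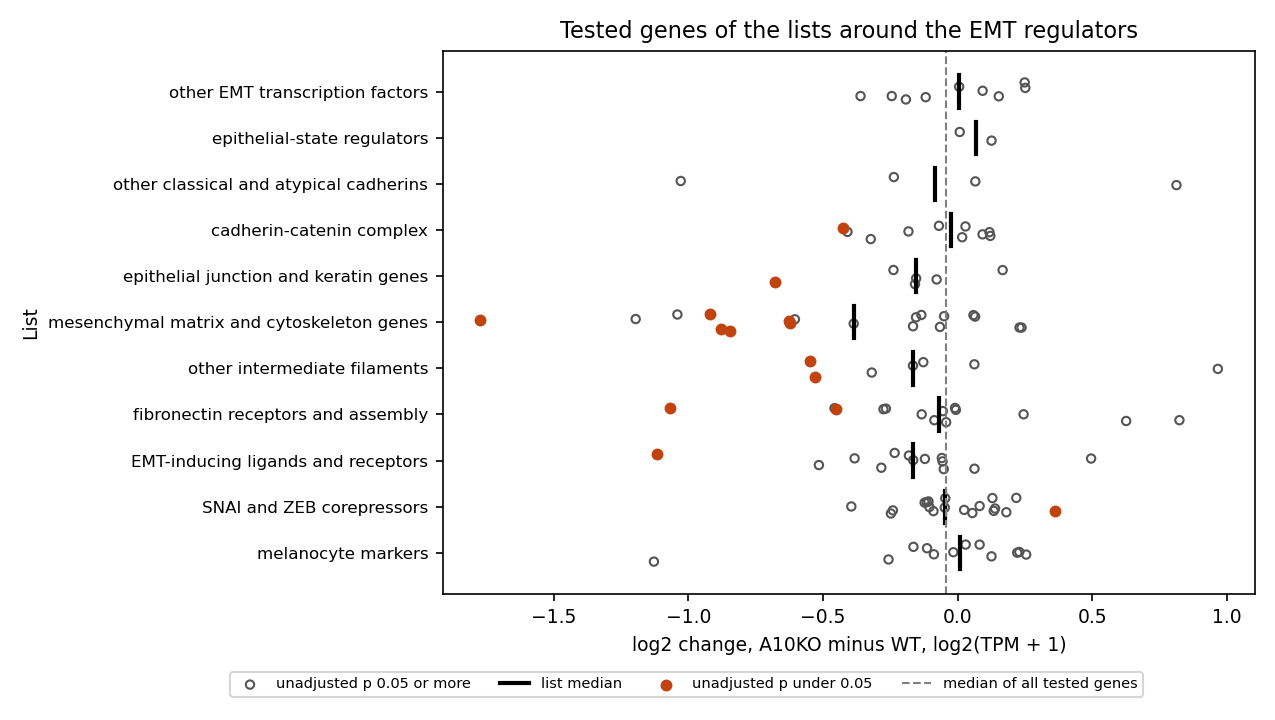
Log2 change of A10KO minus WT for each tested gene of the lists around the 10 genes and of the melanocyte markers; filled red points had an unadjusted limma p under 0.05, open points did not, black bars are list medians and the dashed line is the median of all tested genes (-0.04). In the matrix and cytoskeleton list all 6 filled points lie below 0, and no gene shown passed the adjusted threshold.

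Beside vimentin, 14 other intermediate filament and lamina genes were in the table and 7 were tested, with 0 under an adjusted p of 0.05 by limma and 2 lower at an unadjusted p under 0.05, against 6.27% of all genes tested. That count was 1 on leaving out any WT library or A10KO replicate 1, 3 on leaving out A10KO replicate 13, and 1 lower and 1 higher under median-of-ratios scaling. Nes, which encodes nestin, a filament protein of neural progenitors that assembles with vimentin, stood at 30.2, 28.4 and 35.6 TPM in A10KO replicates 1, 13 and 14, against 47.1, 47.5 and 44.2 TPM in WT. Its groups did not overlap, and as with Vim replicate 13 was lowest and replicate 14 highest among the A10KO libraries (log2 change -0.55, SE 0.13, limma adjusted p = 0.304). Lmna, the lamin A and C gene, stood at 247, 165 and 295 TPM in A10KO, against 339, 310 and 347 TPM in WT (limma adjusted p = 0.530), in the same order of A10KO libraries. The WT libraries had no common order: replicate 3 was highest for Vim and Lmna but lowest for Nes. The share of all genes with the A10KO order was not counted. Lmnb1, the lamin B1 gene, stood at 69.2 ± 11.9 TPM in A10KO and 77.1 ± 5.29 TPM in WT (SD, n = 3 each). Prph, a type III filament gene of neurons chosen after its values were seen, stood at 38.8, 129 and 22.2 TPM in A10KO and 46.9, 84.0 and 56.1 TPM in WT, and did not share the A10KO order of Vim.

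Of 19 fibronectin receptor and assembly genes, 14 were tested, 0 had an adjusted p under 0.05 by limma and 2 were lower at an unadjusted p under 0.05, against 6.27% of all genes tested. That count was 0 without WT replicate 2, 1 without WT replicate 3, 1 under median-of-ratios scaling and 3 without A10KO replicate 1, and 2 other genes were higher without A10KO replicate 14. The 2 lower genes were Fblim1, an adaptor of cell-matrix contacts, at 3.66 ± 2.17 TPM in A10KO and 7.97 ± 0.524 TPM in WT (SD, n = 3 each; limma adjusted p = 0.483), and Ilk, the integrin-linked kinase gene, at 78.4 ± 15.4 TPM in A10KO and 106 ± 4.65 TPM in WT (limma adjusted p = 0.496). Itgb1, the beta subunit of the main fibronectin receptor, stood at 147 ± 13.7 TPM in A10KO and 149 ± 27.1 TPM in WT. Tln1, the talin gene, stood at 102 ± 9.45 TPM in A10KO and 102 ± 5.16 TPM in WT. The median log2 change was -0.07, and it was 0.02 without A10KO replicate 1 and -0.19 without A10KO replicate 13.

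Upstream of the EMT factors, 13 of 18 ligand, receptor and SMAD genes were tested, with 0 under an adjusted p of 0.05 by limma and a median log2 change of -0.17. The median was -0.08 on dropping WT replicate 2, -0.06 on dropping A10KO replicate 14 and -0.26 on dropping A10KO replicate 13. Of the 13, 1 was lower at an unadjusted p under 0.05, beside 6.27% lower among all genes tested. That gene was Notch1, a receptor gene, at 0.24, 0.71 and 0.18 TPM in A10KO replicates 1, 13 and 14, against 1.31, 1.52 and 3.40 TPM in WT (limma adjusted p = 0.403). It passed the filter through the WT libraries alone. Smad4, the shared SMAD of TGF-beta signalling, stood at 28.6 ± 7.09 TPM in A10KO and 30.0 ± 8.96 TPM in WT (SD, n = 3 each). Met, the HGF receptor gene, stood at 17.8 ± 7.22 TPM in A10KO and 17.8 ± 3.93 TPM in WT.

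All 19 genes for partners, corepressors and degradation factors of SNAI and ZEB proteins were tested, with a median log2 change of -0.05 and 0 under an adjusted p of 0.05 by limma. At an unadjusted limma p under 0.05, 1 of the 19 was higher in A10KO, beside 2.56% of all genes tested. It was Smarca4, a chromatin remodelling ATPase gene (unadjusted p = 0.0273), at 83.3 ± 10.4 TPM in A10KO and 64.4 ± 2.96 TPM in WT (SD, n = 3 each; adjusted p = 0.503). On leaving out any WT library or A10KO replicate 1, 0 genes of the list were higher at that level. Ctbp1, a corepressor of ZEB factors, stood at 152 ± 25 TPM in A10KO and 148 ± 2.84 TPM in WT. Ezh2, the histone methyltransferase gene, stood at 133 ± 40.2 TPM in A10KO and 114 ± 3.96 TPM in WT.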

How the data were processed

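RNA was measured in 3 A10KO and 3 WT libraries of B16F10 cells. The authors deposited TPM values, as decimals that sum to 969834 to 985045 per column, under a name that speaks of raw counts. The tools listed in the submitters' processing notes are fastp, HISAT and RSEM, and the build is GRCm38.p5. Their versions are not given in the labels. Depth is unknown, so no counting interval is given. Per-sample files matched the series table in 6 of 6 libraries.

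The 12068 genes reaching 1 TPM in 3 or more libraries were tested with limma 3.58.1 (R 4.3.3, mean-variance trend) on log2(TPM + 1), with Benjamini-Hochberg adjustment over all of them and a threshold of 0.05. The procedure was tested on simulated data, in which the scatter of the WT libraries was used for all libraries. The wider scatter of the A10KO libraries at genes such as Vim and Zeb2 was therefore not covered. Log2 ratios of gene pairs were compared with an exact two-sided permutation test (scipy 1.17.1). Coordinates came from GENCODE M21 (GRCm38).

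The 10 genes and all lists were chosen with earlier results of these data known. The rule for naming list members took those past the adjusted threshold, up to 3 with the lowest unadjusted p under 0.05, and the 2 with the highest mean TPM, and for Vim and Fn1 the 3 genes of most similar profile; a gene that this rule names is not reported here. Other genes named with values, such as those near 0, were chosen after their values were seen. Alternatives were another pseudocount, other filters, other scalings, library weights and leaving out each library.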

Additional observations from a re-analysis of the deposited data

How the results depend on the processing

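The 10 genes, and the lists with a median over 3 or more tested genes, held 0 genes with an adjusted p under 0.05 in all 13 alternative fits. Over all genes, 5 were called in the fit reported, against 3 under quantile normalization, 25 with array quality weights, and 2 to 8 when each library was left out (2 on dropping WT replicate 1 or 2, 3 on dropping WT replicate 3, and 8 on dropping A10KO replicate 1). Vim, Fn1, Cdh2, Grhl2 and Snai2 kept their direction wherever they were tested; Snai2 was under the 5 TPM filter. The log2 change of Zeb2, -0.01, turned to 0.034 under median-of-ratios scaling, 0.0651 under quantile normalization and 0.0581 with mitochondrial transcripts removed, and ran from -0.57 to 0.49 with single libraries left out. With single libraries left out, the difference in the log2 ratio of Cdh2 to Cdh1 ran from -0.70 to 0.20 and that of Snai1 to Snai2 from -0.55 to 0.23. The cause was not tested. Fits without a filter gave log2 differences for the genes under 1 TPM of 0.01 for Cdh1, 0.10 for Snai1, 0.10 for Zeb1 and -0.03 for Twist1, with limma adjusted p-values of 0.805 to 0.966. No paired analysis was possible because the groups share only replicate number 1.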

Other observations

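The marker lists of other cell types were mostly near 0. Under 1 TPM in every library were 10 of 12 keratinocyte, 9 of 12 endothelial and 8 of 12 leukocyte markers. Their summed levels were 1.01 to 2.28 TPM in A10KO and 2.45 to 3.89 TPM in WT for keratinocytes, 26.5 to 34.6 TPM in A10KO and 32.0 to 37.6 TPM in WT for endothelium, and 3.79 to 6.64 TPM in A10KO and 5.02 to 8.94 TPM in WT for leukocytes. Ptprc, the pan-leukocyte marker, was at 0.01 TPM or less in every library. Vwf, the von Willebrand factor gene, stood at 1.96, 0.59 and 6.20 TPM in A10KO replicates 1, 13 and 14, against 5.96, 7.08 and 8.62 TPM in WT (limma unadjusted p = 0.0311, adjusted p = 0.521). Egfl7, an endothelial secreted factor gene that gave most of the endothelial sum, stood at 21.3 ± 2.94 TPM in A10KO and 21.2 ± 2.40 TPM in WT, and Plvap, a gene of endothelial diaphragms, at 6.91 ± 2.15 TPM in A10KO and 6.52 ± 0.633 TPM in WT (SD, n = 3 each). Cd68, a macrophage lysosomal gene that among A10KO libraries reached 1 TPM only in replicate 1, stood at 1.01 ± 0.240 TPM in A10KO and 3.97 ± 1.35 TPM in WT (SD, n = 3 each; limma unadjusted p = 0.00192, adjusted p = 0.247), and its groups did not overlap, as for 11.5% of all genes tested. Coro1a, a leukocyte actin-binding gene, went the other way, at 2.80 ± 1.80 TPM in A10KO and 1.13 ± 0.450 TPM in WT (SD, n = 3 each; limma adjusted p = 0.650). Of the 12 tested melanocyte markers, 6 had a log2 change below 0 and 6 above, with a median of 0.01. The 2 of highest level were both above: Tyrp1, a melanin synthesis gene, stood at 3320 ± 772 TPM in A10KO and 2982 ± 101 TPM in WT, and Mlana, a melanosome gene, at 2991 ± 517 TPM in A10KO and 2500 ± 367 TPM in WT (SD, n = 3 each). Among those below 0 were Gpnmb, a melanosome glycoprotein gene, at 2405 ± 501 TPM in A10KO and 2562 ± 58.5 TPM in WT, and Dct, a melanin synthesis gene, at 1856 ± 203 TPM in A10KO and 1966 ± 61.7 TPM in WT (SD, n = 3 each).

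Genes of the lists that stood apart in A10KO replicate 13, chosen after their values were seen, were Serpine2, a secreted protease inhibitor gene, at 0, 8.68 and 1.62 TPM in A10KO replicates 1, 13 and 14 against 0.27, 0.36 and 0.07 TPM in WT, and Spp1, the osteopontin gene, at 10.2, 0.70 and 10.1 TPM in A10KO against 16.5, 22.1 and 20.0 TPM in WT. Des, the desmin gene, stood at 20.5, 12.01 and 5.67 TPM in A10KO against 3.78, 6.30 and 6.15 TPM in WT (log2 change 0.97, limma adjusted p = 0.564).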
